A study of Mus musculus with 15 samples.

Results

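BH3-only genes encode the proteins that start apoptosis at the mitochondria. The 7 genes described here are Bbc3 (Puma), Pmaip1 (Noxa), Bcl2l11 (Bim), Bid, Bad, Bmf and Bik, taken by symbol from the 45706 genes counted in a mouse RNA-seq series of lineage-negative (Lin-) bone marrow cells. Symbols were matched to the Ensembl identifiers of the count table with GENCODE vM21, and all 7 members were listed and passed the filter on low counts, which left 18983 genes. The coding sequences of 6 members hold the short pattern of the BH3 domain described below, and that of Pmaip1 was not searched.

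A BH3-only protein carries a short amphipathic helix, the BH3 domain, that docks into a groove of the pro-survival BCL-2 proteins or of the effectors BAX and BAK. Once enough pro-survival proteins are occupied, BAX and BAK open the outer mitochondrial membrane, cytochrome c escapes and caspases are activated. PUMA and NOXA are induced by p53, BIM is induced by FOXO factors and on loss of cytokines, BID is cut by caspase-8, BAD is held back by phosphorylation, BMF is tied to the cytoskeleton and BIK acts from the endoplasmic reticulum. In blood-forming cells PUMA is known as a main mediator of death after DNA damage, and the study combined its loss with short telomeres.

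The 15 libraries came from secondary recipients of stem and progenitor cells of 4 genotypes. There were 3 WT libraries, 4 Puma-/- libraries, 4 G3 mTerc-/-Puma+/+ libraries from the third generation without the telomerase RNA, and 4 libraries with the label G3 mTerc-/-Puma-/-, which by that label lack both genes. By the study's methods, donors were C57BL/6J mice of 8 to 12 weeks, cells were transplanted again after 6 weeks, and secondary recipients were examined 16 weeks later unless disease came first. All groups therefore share irradiation of the host and 2 rounds of transplantation, and the CD45.1 hosts carried intact Puma and mTerc genes. The labels name a magnetic depletion of lineage-positive cells and no sort by the donor marker, so cells surviving from the host cannot be told apart from donor cells by the labels. Both deletions were present in all cells of the donor, not in 1 cell type. The labels do not say whether libraries of a group came from separate recipients, and p-values then measure the spread between libraries, which may be technical in part.

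Totals ran from 102790519 to 158367059 counts per library, and a count of 0 allows up to 3 counts, at most 0.0292 CPM (counts scaled to the library total) in the smallest library, a limit that covers counting error only. The study's heatmaps omit replicate 2 of the libraries with the label G3 mTerc-/-Puma-/-, which stood apart on the first principal component, at 129 against -36.1 to 16.02 for the others. It was left out of group means and tests, which rest on 14 libraries, and its values are given beside them. Markers of stem and progenitor cells summed to 290 to 652 CPM, with Kit at 114 to 164 CPM, and none of the 8 was at 0 in every library of a group. Markers of early granulocytes reached 12460 to 26283 CPM. In bulk RNA, fewer cells of a type and less RNA per cell cannot be told apart. Terc had 7 to 17 counts in WT, 4 to 11 in Puma-/- and 0 or 1 in each of the 8 mTerc-/- libraries.

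The BH3 coding stretches show what the members have in common. The coding sequence of Pmaip1 was not searched. In the 6 other members the longest annotated coding sequence held the core pattern of the BH3 domain exactly once. It consists of a leucine, 3 further residues, a small residue (glycine, alanine or serine) and an aspartate. The pattern is short, and 7346 of 21634 protein-coding genes held it somewhere, so it marks the domain only in genes already known to have one. The 14 codons around it are shown from GRCm38 and GENCODE vM21 because they encode the helix by which these proteins act, with the codons of the leucine, the small residue and the aspartate in capitals.
Bbc3, chr7:16313761-16313802, plus strand, residues 141, 145 and 146 of 193: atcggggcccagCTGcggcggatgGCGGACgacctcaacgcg
Bcl2l11, chr2:128147138-128147179, plus strand, residues 150, 154 and 155 of 196: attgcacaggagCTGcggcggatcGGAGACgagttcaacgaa
Bid, chr6:120897286-120897327, minus strand, residues 90, 94 and 95 of 195: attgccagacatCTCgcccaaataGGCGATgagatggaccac
Bad, chr19:6950780-6950821, plus strand, residues 151, 155 and 156 of 204: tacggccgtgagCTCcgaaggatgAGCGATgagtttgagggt
Bmf, chr2:118545097-118545138, minus strand, residues 224, 228 and 229 of 271: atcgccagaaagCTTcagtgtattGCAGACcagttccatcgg
Bik, chr15:83543072-83543113, plus strand, residues 55, 59 and 60 of 150: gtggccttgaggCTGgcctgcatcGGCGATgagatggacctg

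Counted over all 14 codons, capitals included, the stretches differed widely. The encoded leucine and aspartate are the same in every pair by the choice of the pattern. Bbc3 and Bcl2l11 shared 28 of 42 bases, the most of any pair, and 6 of 14 encoded residues. Bid and Bik shared the most residues, 9 of 14, and Bbc3 and Bik the fewest, 2 of 14. Exons of Bid overlap Bcl2l13 on the opposite strand over 628 bases, 17.7% of the exonic length of Bid, and exons of Bad overlap Gpr137 on the opposite strand over 524 bases, 20.5%. The strand setting of the counting is not given in the sources used here, so reads from these partners cannot be told apart from reads of Bid and Bad.

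Per kilobase of exon, the members spanned about 2 orders of magnitude in every genotype, and their order was much the same. On the RPKM scale (normalized CPM divided by exonic length), Bid was the highest member, with a mean over 14 libraries of 30.3, at the 90.5th percentile of 18886 expressed genes with a length. Pmaip1 averaged 13.5 RPKM and Bad 13.2, at the 79.9th and 79.3rd percentiles. Bbc3 averaged 6.37, Bcl2l11 2.94, Bmf 1.35 and Bik 0.332 RPKM, the last from only 40 to 86 counts per library. In WT the order was Bid, Pmaip1, Bad, Bbc3, Bcl2l11, Bmf and Bik, but Pmaip1 ranged so widely that it overlapped Bid and Bad. In Puma-/- the level of Bbc3 fell to 2.59 ± 0.408 RPKM (SD, n = 4), beside 2.51 ± 0.161 for Bcl2l11 (n = 4), and these neighbours overlapped there, as they did in no other genotype. Among the other neighbours in the order, only Bad and Pmaip1 overlapped in G3 mTerc-/-Puma+/+ and also in the libraries with the label G3 mTerc-/-Puma-/-, and Bbc3 overlapped Pmaip1 also in G3 mTerc-/-Puma+/+.

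**Figure D1:**
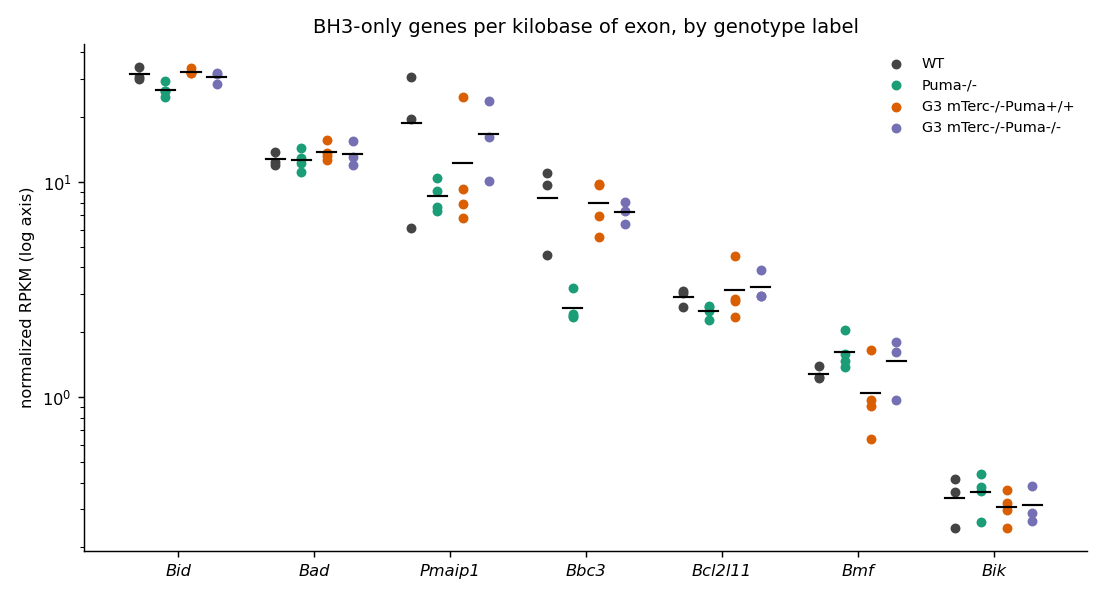
Levels of the 7 BH3-only genes in normalized RPKM on a log axis. Each point is 1 of 14 libraries, coloured by genotype label, and black bars are group means. Bid lies highest and Bik lowest in every genotype, and the Bbc3 points of Puma-/- lie at the level of Bcl2l11.

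Bbc3 (ENSMUSG00000002083), the gene of PUMA, lies on chromosome 7 of GRCm38 from 16308393 to 16318205 and is the gene that the Puma labels name as deleted. Levels are given as normalized CPM, scaled by TMM factors. In WT it was measured at 20.6, 9.67 and 23.5 normalized CPM in replicates 1 to 3. In Puma-/- the 4 libraries had 5.15, 6.80, 5.02 and 5.05 normalized CPM, the 4 lowest values of the series, each from 557 to 768 counts. Bbc3 was thus low in every Puma-/- library, with a mean of 30.8% of that of WT, and reads were still counted on the gene. Counts are given per gene, so the exons that these remaining reads came from are not shown.

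In G3 mTerc-/-Puma+/+ the Bbc3 levels were 14.7, 20.7, 20.5 and 11.7 normalized CPM, within the range of WT. In the libraries with the label G3 mTerc-/-Puma-/- they were 17.0, 15.6 and 13.5 normalized CPM in replicates 1, 3 and 4, and 16.1 in replicate 2. All 4 libraries labelled as lacking Puma in the mTerc-/- background therefore lay within the WT range and above every Puma-/- library, against the label. Directions that involve these libraries rest on their label.

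Bbc3 was the only member that passed the threshold, an adjusted p under 0.05, in edgeR over 14 libraries. Against WT it was lower in Puma-/-, and the log2 fold change was -1.70 (SE 0.267 and adjusted p = 0.0276 by the quasi-likelihood test of edgeR, Benjamini-Hochberg adjusted over 18983 genes), and all 4 libraries lay below all 3 WT libraries (exact permutation test, two-sided, p = 0.0286, which is the smallest p that 4 against 3 libraries allow). This was 1 of 7 members, where 0.0790% of all genes tested were called in this comparison. It was higher in G3 mTerc-/-Puma+/+ than in Puma-/-, by 1.62 on the log2 scale (SE 0.253, adjusted p = 0.0156 in edgeR), where 0.801% of all genes were called. This share stands for 152 genes, a number that was 18 without Puma-/- replicate 4, 19 without G3 mTerc-/-Puma+/+ replicate 3 and 228 without WT replicate 2. It was also higher in the libraries with the label G3 mTerc-/-Puma-/- than in Puma-/-, by 1.48 (SE 0.266, adjusted p = 0.0345 in edgeR), where 0.306% of all genes were called. In both comparisons no library overlapped a Puma-/- library (exact permutation test, two-sided, p = 0.0286 each, again the smallest possible). For these comparisons and that of Puma-/- against WT, the share of all genes without overlap was not computed.

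No member passed in edgeR in the remaining 4 comparisons, in which 0.0369% (G3 mTerc-/-Puma+/+ against WT), 0.0632% (label G3 mTerc-/-Puma-/- against WT), 0.0738% (label G3 mTerc-/-Puma-/- against G3 mTerc-/-Puma+/+) and 0.0527% (interaction) of all genes were called. In the first 3 of these, 0 members had an unadjusted p under 0.05, where 3.86%, 5.45% and 6.22% of all genes did, and 0 passed with DESeq2 or limma-voom. In the interaction 2 members, Bbc3 and Pmaip1, had an unadjusted p under 0.05, where 4.93% of all genes did. For Bbc3, G3 mTerc-/-Puma+/+ differed from WT by a log2 fold change of -0.08 (95% confidence interval -0.65 to 0.49, adjusted p = 0.998 in edgeR). The libraries with the label G3 mTerc-/-Puma-/- differed from WT by -0.22 (interval -0.83 to 0.39, adjusted p = 0.9998 in edgeR) and from G3 mTerc-/-Puma+/+ by -0.14 (interval -0.71 to 0.43, adjusted p = 0.986 in edgeR). These intervals leave room for changes of either sign of moderate size, but not for a fall as large as the one between Puma-/- and WT. The interaction, that is the difference between the Puma labels in the mTerc-/- background less that in the telomerase-proficient one, was 1.56 (SE 0.374, unadjusted p = 0.00101, adjusted p = 0.456 in edgeR).

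The Bbc3 differences kept their size under other settings more than they kept the threshold. Between Puma-/- and WT, the adjusted p rose above 0.05 with limma-voom (0.135), with the Xist level as a covariate (0.0954) and in a fit of the compared groups alone (0.152), and ran from 1.20e-07 (DESeq2) to 0.200 over all alternatives. Without 1 library, it lost the threshold when WT replicate 1 (log2 fold change -1.60, adjusted p = 0.129 in edgeR), WT replicate 3 (-1.46, 0.200), Puma-/- replicate 1 (-1.68, 0.102), Puma-/- replicate 3 (-1.68, 0.102), Puma-/- replicate 4 (-1.66, 0.141) or replicate 3 with the label G3 mTerc-/-Puma-/- (-1.70, 0.0514) was left out. Between G3 mTerc-/-Puma+/+ and Puma-/- the call was lost without Puma-/- replicate 4 (1.58, adjusted p = 0.0622 in edgeR) or G3 mTerc-/-Puma+/+ replicate 3 (1.51, 0.0698), and with the Xist covariate (0.125). Its adjusted p ran from 2.93e-08 (DESeq2) to 0.198 over all alternatives. Between the libraries with the label G3 mTerc-/-Puma-/- and Puma-/- it was lost without any 1 of the 7 libraries compared (1.40 to 1.60, adjusted p = 0.0501 to 0.127 in edgeR), with limma-voom (0.0618) and with the Xist covariate (0.0933), and its adjusted p was at least 6.50e-06 (DESeq2). The interaction passed with DESeq2 (1.58, adjusted p = 0.0103) and, in edgeR, without WT replicate 2 (1.86, adjusted p = 0.0417), and in no other alternative.

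The sex of the cells and megakaryocyte markers moved with Puma-/-. Xist, made by the inactive X chromosome, lay at 464 to 865 normalized CPM in Puma-/- and at 0.176 to 88.6 in G3 mTerc-/-Puma+/+, and 8 of 15 libraries held both Xist above 10 CPM and the Y-linked gene Ddx3y above 1 CPM. Ddx3y had 2 to 5 counts in each of the 4 Puma-/- libraries, at 0.0177 to 0.0446 normalized CPM, and lay at 2.87 to 48.0 in the other 11, and all 4 Y-linked genes tested were called lower in Puma-/- than in WT by edgeR. Replicates 1 and 4 with the label G3 mTerc-/-Puma-/- lay nearest to Puma-/- in Xist (660 and 443) and Ddx3y (2.87 and 4.25). Their Bbc3 was at 17.0 and 13.5. Under this label Eif2s3y and Kdm5d did not follow Ddx3y in every library. Replicate 3 had Ddx3y at 45.9, but Eif2s3y at 6.69 and Kdm5d at 4.005, below replicate 4 at 7.63 and 4.29. Replicate 2 had Ddx3y at 38.9 and Kdm5d at 24.7, but Eif2s3y at 6.52. With this label, edgeR called Eif2s3y and Kdm5d lower than in WT and than in G3 mTerc-/-Puma+/+. Near absence of Y-linked RNA coincided with the Puma-/- label, so that sex and genotype cannot be told apart there. The 6 megakaryocyte markers summed to 352 to 580 CPM in Puma-/- and to 133 to 298 in the other 11 libraries, with none at 0, and the WT library with most of them, replicate 2, had the lowest Bbc3 outside Puma-/-. With Xist as a covariate the log2 fold changes of Bbc3 were -1.58 for Puma-/- against WT, 1.45 for G3 mTerc-/-Puma+/+ against Puma-/- and 1.38 for the label G3 mTerc-/-Puma-/- against Puma-/-. The part of the megakaryocyte markers in these differences was not tested.

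**Figure D2:**
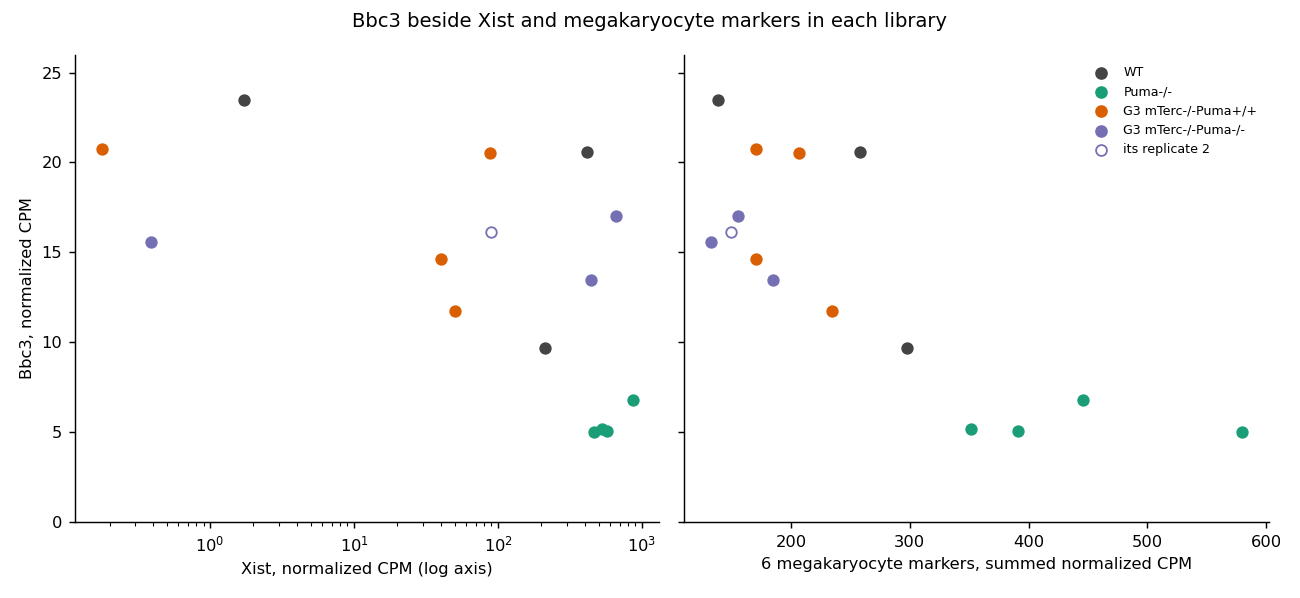
Bbc3 in normalized CPM against Xist (left, log axis) and against the summed normalized CPM of 6 megakaryocyte markers (right) in the 15 libraries, coloured by genotype label, with the open circle for replicate 2 with the label G3 mTerc-/-Puma-/-. The 4 Puma-/- libraries lie lowest for Bbc3 at 5.02 to 6.80, while libraries with the label G3 mTerc-/-Puma-/- with Xist above 400 lie at 13.5 and 17.0.

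Pmaip1 (ENSMUSG00000024521), which encodes NOXA, a partner of the pro-survival protein MCL1, lies on chromosome 18 from 66458533 to 66465565 and varied more between libraries of a genotype than any other member. WT had 53.6, 16.6 and 83.5 normalized CPM, and Puma-/- had 24.7, 28.3, 19.98 and 20.8. G3 mTerc-/-Puma+/+ had 18.6, 67.9, 21.4 and 25.2. The libraries with the label G3 mTerc-/-Puma-/- had 64.6, 44.1 and 27.5, and 20.8 in replicate 2. High values occurred in all genotypes but Puma-/-, and the groups overlapped throughout.

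Pmaip1 was lower in Puma-/- than in WT by an unadjusted p of 0.0409, and the log2 fold change was -1.13 (SE 0.500 over 4 and 3 libraries, adjusted p = 0.472 in edgeR). It did not pass. This log2 fold change ran from -1.55 without WT replicate 2 to -0.58 without WT replicate 3. The interaction was 1.58 (SE 0.706, unadjusted p = 0.0427, adjusted p = 0.989 in edgeR). The standard deviation of its log2 level within genotypes was 0.772, above 99.2% of 1000 genes of like level, whose median was 0.136.

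The 4 libraries highest in Pmaip1 were also high in Jun and Klf6. Jun, a subunit of the AP-1 factor, was at 1060, 1110, 954 and 999 normalized CPM in WT replicates 1 and 3, G3 mTerc-/-Puma+/+ replicate 2 and replicate 1 with the label G3 mTerc-/-Puma-/-, and at 295 to 718 in the other 11 libraries. Klf6, the gene most like Pmaip1 over 14 libraries, lay at 344 to 469 in these 4 libraries and at 57.2 to 149 in the others. Replicate 3 with the label G3 mTerc-/-Puma-/-, next in Pmaip1 at 44.1, was among the others, with Jun at 567 and Klf6 at 146. The part of Jun and Klf6 in the spread of Pmaip1 was not tested.

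Bcl2l11 (ENSMUSG00000027381), which encodes BIM, lies on chromosome 2 from 128126038 to 128162547. WT had 24.6, 21.1 and 24.9 normalized CPM, and Puma-/- had 21.0, 21.2, 18.4 and 20.2. G3 mTerc-/-Puma+/+ had 36.5, 18.9, 22.9 and 22.5. The libraries with the label G3 mTerc-/-Puma-/- had 31.1, 23.6 and 23.7, and 26.3 in replicate 2, all above every Puma-/- library. That comparison gave a log2 fold change of 0.37 and did not pass (adjusted p = 0.615 in edgeR), while the exact two-sided permutation test over 3 against 4 libraries gave its smallest possible p of 0.0286, and no adjustment over members was applied. In this comparison 8.42% of all genes had an unadjusted p under 0.05 in edgeR, and Bcl2l11, at 0.0593, did not. The share of all genes without overlap was not computed. The log2 fold change of Bcl2l11 was 0.23 without replicate 1 with the label G3 mTerc-/-Puma-/-. Replicate 1 of both mTerc-/- groups held the highest values of the series.

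Bid (ENSMUSG00000004446), on the minus strand of chromosome 6 from 120891930 to 120916853, encodes the protein that links death receptors to mitochondria. WT had 109, 106 and 121 normalized CPM, and Puma-/- had 94.3, 87.9, 104 and 93.8. G3 mTerc-/-Puma+/+ had 114, 120.3, 115 and 113, the narrowest spread of any member and genotype at 2.78% (SD over mean, n = 4). The libraries with the label G3 mTerc-/-Puma-/- had 101, 114 and 112, and 76.7 in replicate 2, the lowest value of the series. The Puma-/- libraries lay below every WT and every G3 mTerc-/-Puma+/+ library. The exact two-sided permutation test gave p = 0.0571 against WT and p = 0.0286 against G3 mTerc-/-Puma+/+. Of all genes, 10.1% and 17.1% had an unadjusted p under 0.05 in edgeR in these comparisons, which share the Puma-/- libraries. The share of all genes without overlap was not computed.

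None of the Bid differences passed. Puma-/- differed from WT by -0.24 on the log2 scale (SE 0.0723, unadjusted p = 0.00552, adjusted p = 0.369 in edgeR). G3 mTerc-/-Puma+/+ differed from Puma-/- by 0.28 (SE 0.0672, unadjusted p = 0.000985, adjusted p = 0.0665 in edgeR), and this passed with DESeq2 (adjusted p = 0.00643) and, in edgeR, without Puma-/- replicate 3 (0.33, adjusted p = 0.0424), with values up to 0.920 over the other alternatives. The libraries with the label G3 mTerc-/-Puma-/- differed from Puma-/- by 0.20 (SE 0.0723, unadjusted p = 0.0149, adjusted p = 0.423 in edgeR). The small size of these differences stood beside a small spread over 14 libraries. It was 0.0861 on the log2 scale within genotypes, where genes of like level had a median of 0.133. Replicate 2 with the label G3 mTerc-/-Puma-/-, at 76.7 normalized CPM, is not in this spread, and the spread with it was not computed. The overlap of Bid exons with Bcl2l13 applies to each of these values.

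Bad (ENSMUSG00000024959), on chromosome 19 from 6941861 to 6951899, encodes a protein controlled by growth factor signalling. It ranged from 28.4 to 40.1 normalized CPM over the 15 libraries. WT averaged 32.5 ± 2.41 (SD, n = 3) and Puma-/- 32.4 ± 3.53 (n = 4), while G3 mTerc-/-Puma+/+ averaged 35.3 ± 3.41 (n = 4) and the label G3 mTerc-/-Puma-/- 34.6 ± 4.68 (n = 3). By library, WT had 30.8, 35.3 and 31.6, Puma-/- 32.8, 28.4, 36.9 and 31.4, G3 mTerc-/-Puma+/+ 34.8, 40.1, 33.7 and 32.4, and the libraries with the label G3 mTerc-/-Puma-/- 30.6, 33.5 and 39.7, with 31.1 in replicate 2. All groups overlapped. After Bid, Bad had the smallest spread within genotypes over 14 libraries, an SD of 0.150 on the log2 scale.

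Bmf (ENSMUSG00000040093), on the minus strand of chromosome 2 from 118528757 to 118549687, encodes a BH3-only protein released from the cytoskeleton. WT had 6.41, 6.53 and 7.29 normalized CPM, and Puma-/- had 8.33, 7.70, 7.23 and 10.8. G3 mTerc-/-Puma+/+ had 8.65, 3.35, 5.11 and 4.75. The libraries with the label G3 mTerc-/-Puma-/- had 9.49, 8.51 and 5.10, and 4.44 in replicate 2. In G3 mTerc-/-Puma+/+ 3 of 4 libraries lay below all WT and Puma-/- libraries, and replicate 1, at 8.65, lay above all WT libraries and within the range of Puma-/-. The log2 fold change of G3 mTerc-/-Puma+/+ against Puma-/- was -0.64 (SE 0.260, unadjusted p = 0.0282, adjusted p = 0.232 in edgeR), which did not pass, and it ran from -0.95 without G3 mTerc-/-Puma+/+ replicate 1 to -0.45 without replicate 2. Megakaryocyte markers were also lower in G3 mTerc-/-Puma+/+ than in Puma-/-, as given above, but summed to 170.3 CPM in both replicates 1 and 2. Markers of T and NK cells summed to 170.6, 27.3, 57.2 and 77.0 CPM in replicates 1 to 4 of G3 mTerc-/-Puma+/+. Of 10 B lymphoid markers, edgeR called 2 lower than in Puma-/-, where 0.801% of all genes were called. The part of these markers in the level of Bmf was not tested.

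Bik (ENSMUSG00000016758), on chromosome 15 from 83526862 to 83544634, had the fewest counts of the members, 40 to 86 per library, and encodes a BH3-only protein of the endoplasmic reticulum. It had 0.393, 0.658 and 0.573 normalized CPM in WT and 0.418, 0.700, 0.580 and 0.607 in Puma-/-. In G3 mTerc-/-Puma+/+ it had 0.512, 0.392, 0.475 and 0.586, and in the libraries with the label G3 mTerc-/-Puma-/- 0.458, 0.422 and 0.617, with 0.739 in replicate 2. The groups overlapped throughout. Over the 36 values of members other than Bbc3 with an unadjusted p of 0.05 or more, of 42 in all, log2 fold changes ran from -0.62 to 0.95, both of Pmaip1, and the lowest adjusted p was 0.351 in edgeR.

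**Figure D3:**
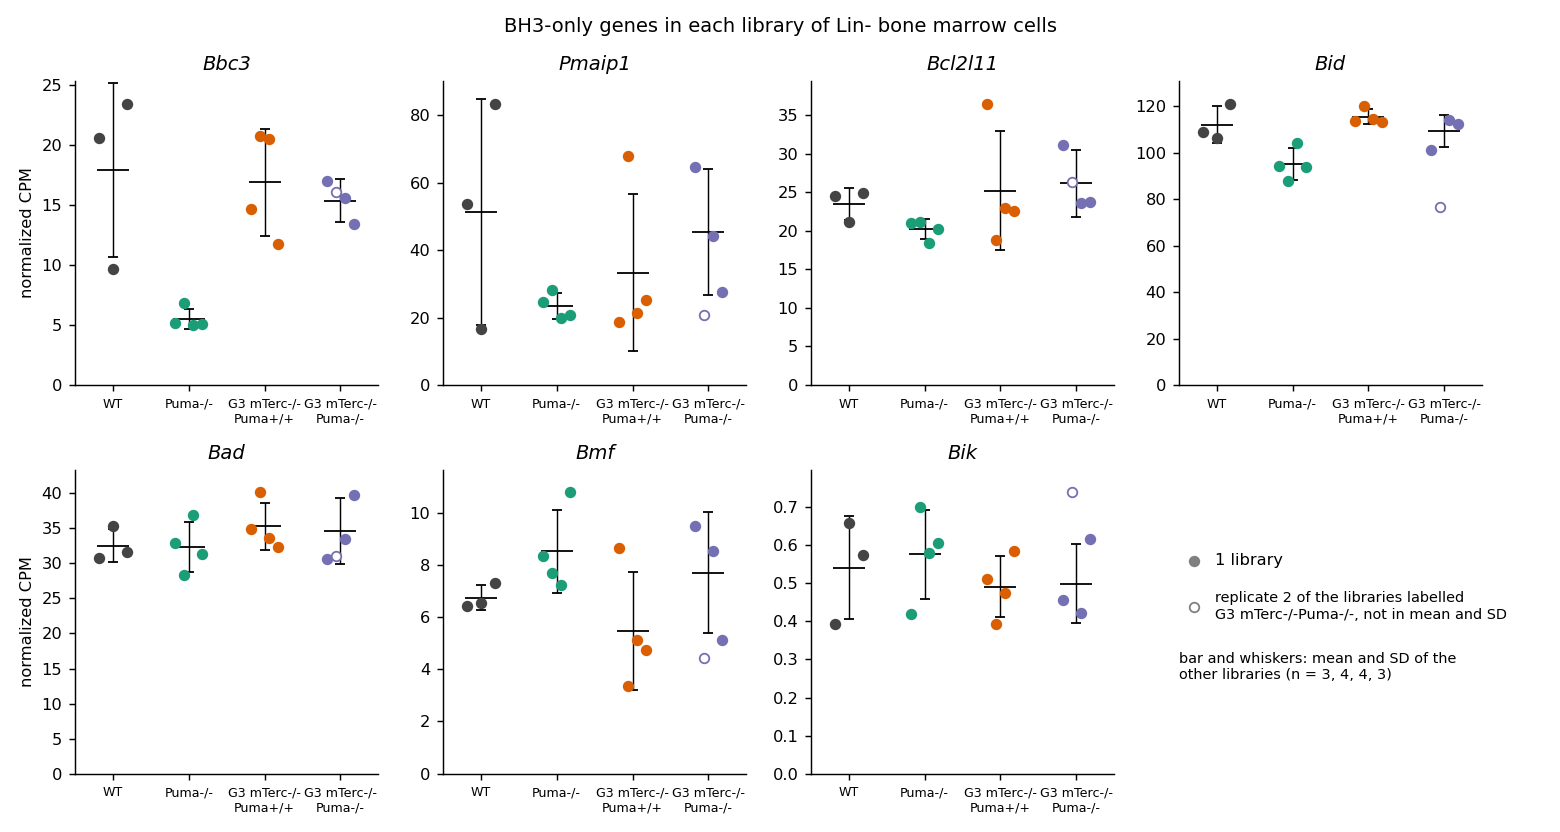
Normalized CPM of the 7 BH3-only genes in each of 15 libraries by genotype label, with means and SD of the 14 libraries tested (n = 3, 4, 4 and 3) and each axis starting at 0. Bbc3 separates Puma-/- from the rest, Pmaip1 shows 4 high libraries above 50 in WT and the 2 mTerc-/- groups, and Bad and Bik overlap in all groups.

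**Figure D4:**
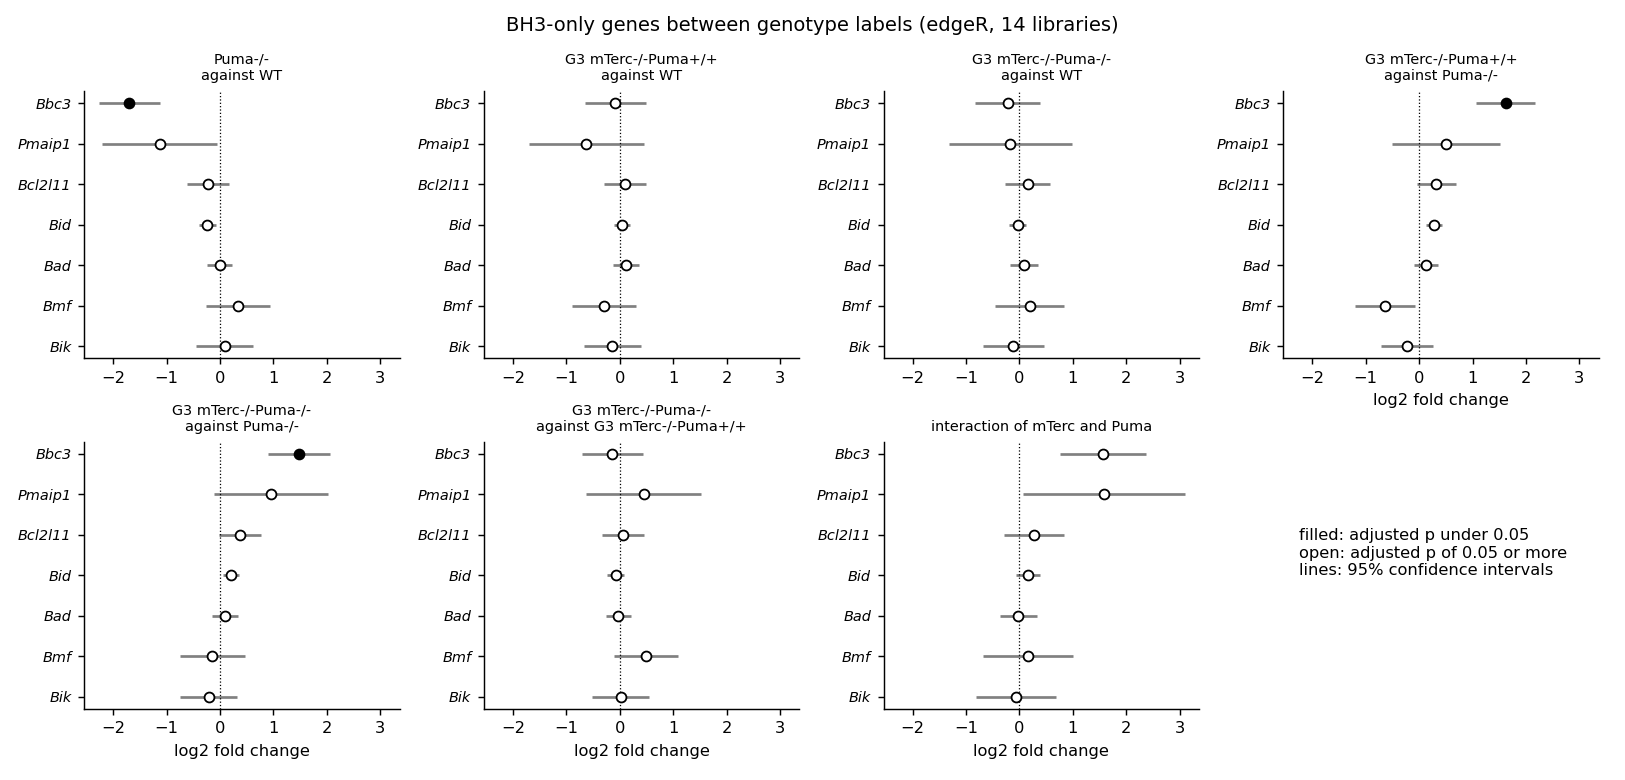
Log2 fold changes with 95% confidence intervals of the 7 genes in the 6 comparisons of genotype labels and the interaction, from edgeR over 14 libraries. Filled points, Bbc3 in the pairwise comparisons that involve Puma-/-, have an adjusted p under 0.05. Bbc3 in the interaction is open, and the intervals of Bid and Bad are the narrowest.

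The genotype label held very different shares of the spread of each member, as a description of these 14 libraries. It held 81.2% of the variance of Bbc3 on the log2 scale and 71.3% of that of Bid, above 99.6% and 99.1% of the 1000 genes nearest to each in level. It held 39.7% for Bmf, 28.7% for Bcl2l11, 24.7% for Pmaip1, 15.7% for Bad and 11.9% for Bik, beside medians of 21.0% to 26.9% for the genes nearest in level to each of the 7. These shares leave out replicate 2 with the label G3 mTerc-/-Puma-/-, whose Bid of 76.7 normalized CPM was the lowest of the series. Shares over 15 libraries were not computed. The Puma labels name Bbc3 as deleted, and the Puma-/- label cannot be told apart from sex, as given above. In Puma-/- against WT the median log2 fold change of the 7 members was -0.22, beside 0.0048 over all genes, with 5 of 7 below 0. In G3 mTerc-/-Puma+/+ against Puma-/- it was 0.28, beside -0.00049 over all genes, with 5 of 7 above 0. These comparisons share the Puma-/- libraries, and the 5 members are the same in both. They include Bbc3, the gene that the Puma labels name as deleted, and Bad, which was at -0.0081 in Puma-/- against WT. In the other comparisons the median lay between -0.08 and 0.20.

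Within genotypes, the members were compared in pairs. Of the 21 pairs, the deviations from genotype means correlated most for Bcl2l11 and Bmf, with Pearson's r = 0.817 (permutation within genotypes, two-sided p = 0.0185, adjusted p = 0.195 over 21 pairs) and Spearman's rho = 0.596 (permutation p = 0.0518, adjusted p = 0.272) over 14 libraries. Without the 2 libraries farthest from the median of Bcl2l11, r was 0.512. Bbc3 and Pmaip1 had r = 0.791 (permutation p = 0.0133, adjusted p = 0.195) and rho = 0.780 (permutation p = 0.00965, adjusted p = 0.203), and r = 0.588 without the 2 libraries farthest for Bbc3. No pair passed the adjustment. The deviations of both p53 targets were positive in WT replicates 1 and 3 and negative in WT replicate 2, the libraries that also differed in Jun.

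**Figure D5:**
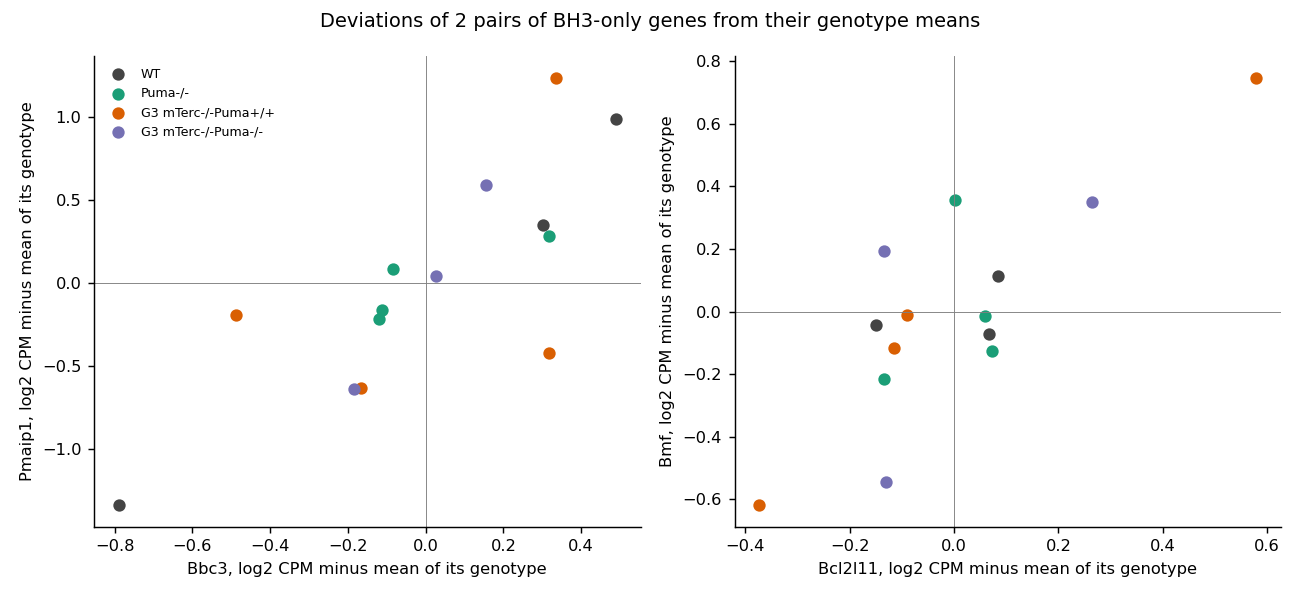
Deviations from the genotype mean, in log2 CPM, of Bbc3 and Pmaip1 (left) and of Bcl2l11 and Bmf (right) in 14 libraries, coloured by genotype label. The outermost points, WT replicate 2 for Bbc3 and Pmaip1 and G3 mTerc-/-Puma+/+ replicates 1 and 2 for Bcl2l11 and Bmf, lie far from the others, and r without the 2 farthest libraries was 0.588 and 0.512.

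Among the 3 highest Pearson correlations of each member over 14 libraries, given as a description of genes chosen out of 18983 for it, Bbc3 had Ednrb (r = 0.941, 0.866 on values centred on genotype means), Cenpu (0.915, 0.817) and Mbtps2 (0.893, 0.760). Pmaip1 had Klf6 (0.946) and Klf2 (0.943), with centred values of 0.955 and 0.953. Bcl2l11 had Resf1 (0.861) and Klf13 (0.856). Bid had Mfsd1 (0.959), the pseudogene Gm4204 (0.952) and Shcbp1 (0.944), and Bad had Psmb5 (0.956), Znhit2 (0.954) and Ndufa11 (0.944). Bmf had Nedd9 (0.915) and Traf3ip3 (0.910), and Bik had Gm15545 (0.865), 1500011B03Rik (0.835) and Zbtb8a (0.829). Libraries of these lists share depth and cell composition. With replicate 2 included, the correlation of Bbc3 fell to 0.619 with Ednrb and to 0.594 with Mbtps2. That of Bcl2l11 with Klf13 fell to 0.680 and that of Bik with Zbtb8a to 0.575. The other correlations named here were then 0.739 or more.

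The genes of the proteins that BH3-only proteins act on had no call in edgeR. Of 8 pro-survival genes 7 were tested, and over the 7 comparisons 5 values had an unadjusted p under 0.05 in edgeR and 0 passed with edgeR, DESeq2 or limma-voom. For this and the following lists, the share of all genes with an unadjusted p under 0.05 was 3.86% to 17.1% in a comparison. The eighth gene, Bcl2l10, had at most 2 counts. Mcl1, whose protein NOXA binds, averaged 357 ± 94.4 normalized CPM (SD, n = 3) in WT and 252 ± 10.003 (n = 4) for Puma-/-. It averaged 272 ± 30.2 (n = 4) for G3 mTerc-/-Puma+/+ and 298 ± 64.7 (n = 3) for the label G3 mTerc-/-Puma-/-. Bcl2 had group means of 68.2 to 72.5 and Bcl2l1, the gene of BCL-XL, of 24.4 to 25.9 normalized CPM.

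The 3 effectors had 4 values with an unadjusted p under 0.05 and 0 calls with edgeR or limma-voom, while DESeq2 called Bax in both mTerc-/- groups against Puma-/-. Bax, which forms the pores of the outer membrane, averaged 79.6 ± 2.66 normalized CPM (SD, n = 3) in WT and 75.1 ± 9.05 (n = 4) for Puma-/-. Its mean was 100.5 ± 14.5 (n = 4) for G3 mTerc-/-Puma+/+ and 110.5 ± 16.6 (n = 3) for the label G3 mTerc-/-Puma-/-, and that of Bak1 lay between 101 and 117. Among 4 further BH3 genes 3 were tested, with 0 values at an unadjusted p under 0.05 in edgeR and 1 in DESeq2, and 0 calls with any of the 3 tools, and Hrk had at most 2 counts. The 10 upstream regulators gave 7 values with an unadjusted p under 0.05 and 0 calls with any of the 3 tools, and the mean of Trp53, the gene of p53, lay between 207 and 213 normalized CPM in all groups. The 8 genes downstream of the mitochondria, such as Apaf1 and the caspases, gave 2 such values and 0 calls with any of the 3 tools, at median log2 fold changes between -0.04 and 0.09.

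Of 10 other p53 targets, some of which the study chose on these samples, so that their direction is not independent evidence, more passed than of any other list of the pathway. In G3 mTerc-/-Puma+/+ against Puma-/-, 2 of 10 were higher, Cdkn1a, the inhibitor of the cell cycle, by 1.21 on the log2 scale (SE 0.248, adjusted p = 0.0453 in edgeR) and Ccng1 by 0.59 (SE 0.120, adjusted p = 0.0433 in edgeR). In the libraries with the label G3 mTerc-/-Puma-/- against Puma-/-, 4 of 10 were higher, Cdkn1a by 1.90, Ccng1 by 0.75, Phlda3 by 2.09 and Zmat3 by 1.87 (adjusted p = 0.00594 to 0.0253 in edgeR). Against WT, 3 of 10 were higher in these libraries, Phlda3 by 2.80, Zmat3 by 1.94 and Eda2r by 3.49 (adjusted p = 0.00693 to 0.0444 in edgeR). The median log2 fold changes of the 10 in these comparisons were 0.48, 0.69 and 0.77. In the other 4 comparisons 0 passed in edgeR, with 3 to 6 of 10 at an unadjusted p under 0.05, and DESeq2 called 4 in G3 mTerc-/-Puma+/+ against WT and 1 in the interaction. Cdkn1a averaged 40.0 ± 17.2 normalized CPM (SD, n = 3) in WT, 24.7 ± 1.53 (n = 4) for Puma-/-, 57.1 ± 16.3 (n = 4) for G3 mTerc-/-Puma+/+ and 92.3 ± 15.9 (n = 3) for the label G3 mTerc-/-Puma-/-. Bbc3 and Pmaip1, which are also targets of p53, passed against WT in neither mTerc-/- group, with log2 fold changes of -0.08 and -0.62 for G3 mTerc-/-Puma+/+ and -0.22 and -0.17 for the label G3 mTerc-/-Puma-/-.

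Promoter windows from RefSeq (GRCm38.p6, from 250 bases before to 50 after a start) were searched for 2 motifs named by the pathway. The search covered 11 windows of 5 of 7 members. Pmaip1 was not searched, and Bik had no window. The FOXO motif GTAAACA, read on both strands, was in 1 of 2 windows of Bcl2l11 and 1 of 3 of Bbc3, and in 3.65% of all 32851 windows. The p53 full site, with its core bases kept, at most 3 mismatches in all and up to 13 bases between its 2 parts, was in 2 of 3 windows of Bbc3, in no window of Bcl2l11, Bid, Bad or Bmf and in 15.6% of all windows. The matches did not overlap each other. The following stretches are shown because they hold matches to the motifs of factors named above, with the matches in capitals. A match is a description of the sequence, and binding was not tested.
Bbc3, p53 site with 3 mismatches, chr7:16309461-16309530, plus strand, match 97 to 78 bases before the start: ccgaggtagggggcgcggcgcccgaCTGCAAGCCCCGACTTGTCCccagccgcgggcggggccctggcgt
Bbc3, GTAAACA on the other strand, chr7:16310069-16310125, plus strand, match 167 to 161 bases before the start: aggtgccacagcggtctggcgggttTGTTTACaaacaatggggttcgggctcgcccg
Bcl2l11, GTAAACA, chr2:128125788-128125842, plus strand, match 227 to 221 bases before the start: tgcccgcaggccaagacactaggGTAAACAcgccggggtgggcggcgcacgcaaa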

How the data were processed

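RNA of Lin- bone marrow cells was sequenced from TruSeq stranded mRNA libraries. Per the labels and the study's methods, the authors trimmed reads with Trimmomatic 0.38 and counted them per gene with STAR 2.5.2b on GRCm38 (mm10), and deposited the raw counts without normalization. The annotation release and strand setting are not given in the sources used here, and 563 of 45706 identifiers had no symbol in GENCODE vM21.

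Counts of 14 libraries were normalized by TMM, filtered with filterByExpr (18983 genes) and tested with edgeR 4.0.16 (R 4.3.3; quasi-likelihood, 4 genotypes in 1 fit, Benjamini-Hochberg over all genes, threshold 0.05, common biological coefficient of variation 0.251) for 6 pairs and the interaction. Replicate 2 with the label G3 mTerc-/-Puma-/-, absent from the study's heatmaps, was left out. SE is the log2 fold change over the square root of F. RPKM are normalized CPM per kilobase of merged exons, and a prior count of 2 went into log2 CPM. The alternatives took all 15 libraries, scaling by library size, other filters, DESeq2 1.42.0, limma-voom (limma 3.58.1), a replicate block, an Xist covariate, fits of 2 groups and leaving out each library. After the data had been seen, the covariate, limma-voom and the block were also run with 15 libraries.

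Simulated counts for Puma-/- against WT, with 200 of 18983 genes changed, gave 93.5% recovered by edgeR (5.08% of calls false), 93.0% by limma-voom (4.62%) and 96.0% by DESeq2 (17.9%). These shares were not split by size of change or by level of the gene. Recovery for a member with a small difference or few counts was not tested separately. Groups follow the titles. The replicate numbers pair no samples by label. Replicates differed by more than counting error (chi-square per gene 38.3 or more), so none was a duplicate. The members, gene lists and tests were chosen with earlier results of these data known. Full fold changes are given for Bbc3 and for members with an unadjusted p under 0.05, other genes of the lists are named where they passed, and Trp53, Cdkn1a, Bax, Bak1, Bcl2, Bcl2l1 and Mcl1 are given as levels. The 3 genes most correlated with each member were also taken, some of which are not reported here. Jun levels were added after seeing the data. Columns of no sample numbered 0.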

Additional observations from a re-analysis of the deposited data

Results flagged for a closer look

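Of the 21 combinations of a member and a group of 4 libraries that were examined, 3 had a library far from the others by Dixon's criterion, which chance meets in about 1 of 20. Bbc3 in Puma-/- replicate 2 was at 6.80 normalized CPM, where the other 3 libraries lay between 5.02 and 5.15. Pmaip1 in G3 mTerc-/-Puma+/+ replicate 2 was at 67.9, where the others lay between 18.6 and 25.2. Bid in the same library was at 120.3, where the others lay between 113 and 115.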

How the results depend on the processing

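All 15 libraries, library size alone and both other count filters left the number of BH3-only genes called as it was in the 7 comparisons. DESeq2 called 2 members between G3 mTerc-/-Puma+/+ and Puma-/- (Bbc3 and Bid) and 1 in the interaction (Bbc3). Between Puma-/- and WT, limma-voom, the replicate block, the Xist covariate and a fit of these 2 groups alone each called 0, as did the 15 libraries with the covariate, limma-voom or the block. Between G3 mTerc-/-Puma+/+ and Puma-/-, 0 were called with the covariate and with the 15 libraries and the covariate, limma-voom or the block. Between the libraries with the label G3 mTerc-/-Puma-/- and Puma-/-, 0 were called with limma-voom, the block, the covariate and the 15 libraries with the covariate. The causes were not tested. Without 1 library each, the count ran from 0 to 1 in Puma-/- against WT, label G3 mTerc-/-Puma-/- against Puma-/- and the interaction, and from 0 to 2 in G3 mTerc-/-Puma+/+ against Puma-/-.

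Over all genes, DESeq2 called 137, 1004, 287, 172 and 64 where edgeR called 15 (Puma-/- against WT), 152 (G3 mTerc-/-Puma+/+ against Puma-/-), 58 (label G3 mTerc-/-Puma-/- against Puma-/-), 14 (against G3 mTerc-/-Puma+/+) and 10 (interaction), and with all 15 libraries the 152 became 24, with the block 43 and with the Xist covariate 18. Without 1 library, the 15 ran from 11 to 28 and the 58 from 18 to 93. Same-numbered libraries did not deviate together (correlations of -0.407 to 0.548, 7 of 18 above 0.1), so the numbers show no pairing. With the replicate block, the log2 fold change of Bbc3 between Puma-/- and WT was -1.59 (adjusted p = 0.188 in edgeR), and that between G3 mTerc-/-Puma+/+ and WT, -0.08 without it, turned to 0.0024 (0.0017 with 15 libraries), far within its SE. Leaving out 1 library moved the latter from -0.38 to 0.16 and Bbc3 in label G3 mTerc-/-Puma-/- against WT from -0.52 to 0.022. Bik, at 40 to 86 counts, rests on the fewest counts of the members.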

Other observations

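Replicate 2 of the libraries with the label G3 mTerc-/-Puma-/-, which entered only the tests with 15 libraries, held the lowest Bid (76.7 normalized CPM) and the highest Bik (0.739) of the 15 libraries, while its Bbc3 (16.1), Pmaip1 (20.8), Bcl2l11 (26.3), Bad (31.1) and Bmf (4.44) lay within the range of the others. Its 8 pro-survival genes summed to 289 normalized CPM, where the other 14 libraries had 352 to 529, and its 10 p53 targets summed to 614, where the others had 159 to 368. It also held 1464 CPM of erythroid markers, where the others had 25.5 to 229.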
